A study of Homo sapiens with 7 samples.

Results

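The 34 genes described here belong to glycolysis and to the transcriptional response to low oxygen, and stand among 56236 genes with transcripts in the deposited RNA-Seq data. They were chosen by name: 13 genes of glucose uptake and early glycolysis, 6 of late glycolysis, 5 of pyruvate and lactate handling and 10 of the hypoxia response. The data come from TE5 and KYSE140, both established cell lines of esophageal squamous cell carcinoma (ESCC), in which the transcription factors TP63 and SOX2 or the long noncoding RNA CCAT1 were silenced with short hairpin RNAs (shRNAs). TE5 gave 4 libraries, with a non-targeting scramble shRNA (the control) or an shRNA against TP63 (shTP63), SOX2 (shSOX2) or CCAT1 (shCCAT1). KYSE140 gave 3 libraries, with scramble, shTP63 or shSOX2. Each condition was 1 library from 1 line and the labels name no treatment besides the shRNA, so that the lines stood in as replicates of each other. Nothing replicates a difference measured inside 1 line. The labels give the same hairpin against TP63, and the same against SOX2, in both lines. An off-target effect of a hairpin cannot be told apart from the loss of its target.

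In glycolysis, glucose that has entered through GLUT transporters is phosphorylated, split and oxidized to pyruvate. Lactate dehydrogenase can reduce the pyruvate to lactate, which leaves the cell with a proton through monocarboxylate transporters. When oxygen is low, the HIF transcription factors (HIF1A or its relative EPAS1, paired with ARNT) are stabilized and induce most genes of this pathway, together with genes of angiogenesis, pH control, mitochondrial turnover and collagen hydroxylation.

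Estimated counts summed to between 68532611 and 98036494 per library. The shTP63 libraries kept TP63 at 25.4% (TE5) and 26.1% (KYSE140) of the scramble level. The shSOX2 libraries kept SOX2 at 39.6% and 77.4%, and TE5 shTP63 cells also had SOX2 at 67.3%, while the level of CCAT1 itself was not analysed here. The scramble and the silenced libraries of a line never shared a lane, and in TE5 not a flow cell, and an effect of the lane cannot be told apart from a change seen with every shRNA. No lane held libraries of both lines, so that line and lane cannot be told apart either. Of the squamous markers, TP63, SOX2, KRT5, KRT6A and DSG3 reached at least 33.0 TPM in every library (TPM is a level per length of transcript that sums to the same total in each library), but KRT14 was at 0.202 to 0.546 TPM in TE5 against 304 to 1689 TPM in KYSE140. The fibroblast marker COL1A1 was at 12.6 to 44.4 TPM, and the other 5 fibroblast markers reached at most 1.73 TPM. In such bulk libraries, fewer cells of a type and less RNA per cell cannot be told apart.

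The glycolysis and hypoxia-response genes were among the most abundant of both lines and were mostly lower in TE5. Together they took 1.35 to 1.82% of all TPM in the TE5 libraries and 3.25 to 3.82% in the KYSE140 libraries. Of the 34 genes, 27 were lower and 2 were higher in TE5 than in KYSE140 in edgeR's quasi-likelihood test at a Benjamini-Hochberg adjusted p under 0.1, with condition as block and 6 libraries (scramble, shTP63 and shSOX2 of each line). The p-values here and below rest on the spread left after the terms for line and condition, with 2 residual degrees of freedom. With 1 library per line and condition, this spread is how far the lines differ in their response to an shRNA. The spread between cultures of a condition was not measured. Over all 23438 genes tested, 31.8% were lower and 34.3% were higher. The median log2 difference (TE5 over KYSE140) was -1.23 over the 34 genes and 0.07 over all genes. Among the 10% of genes with the highest mean normalized counts, which held 28 of the 34, 43.1% were lower and 34.4% higher, with a median of -0.12. This mean was taken over the libraries of both lines, so that a gene low in TE5 could be among them.

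**Figure D1:**
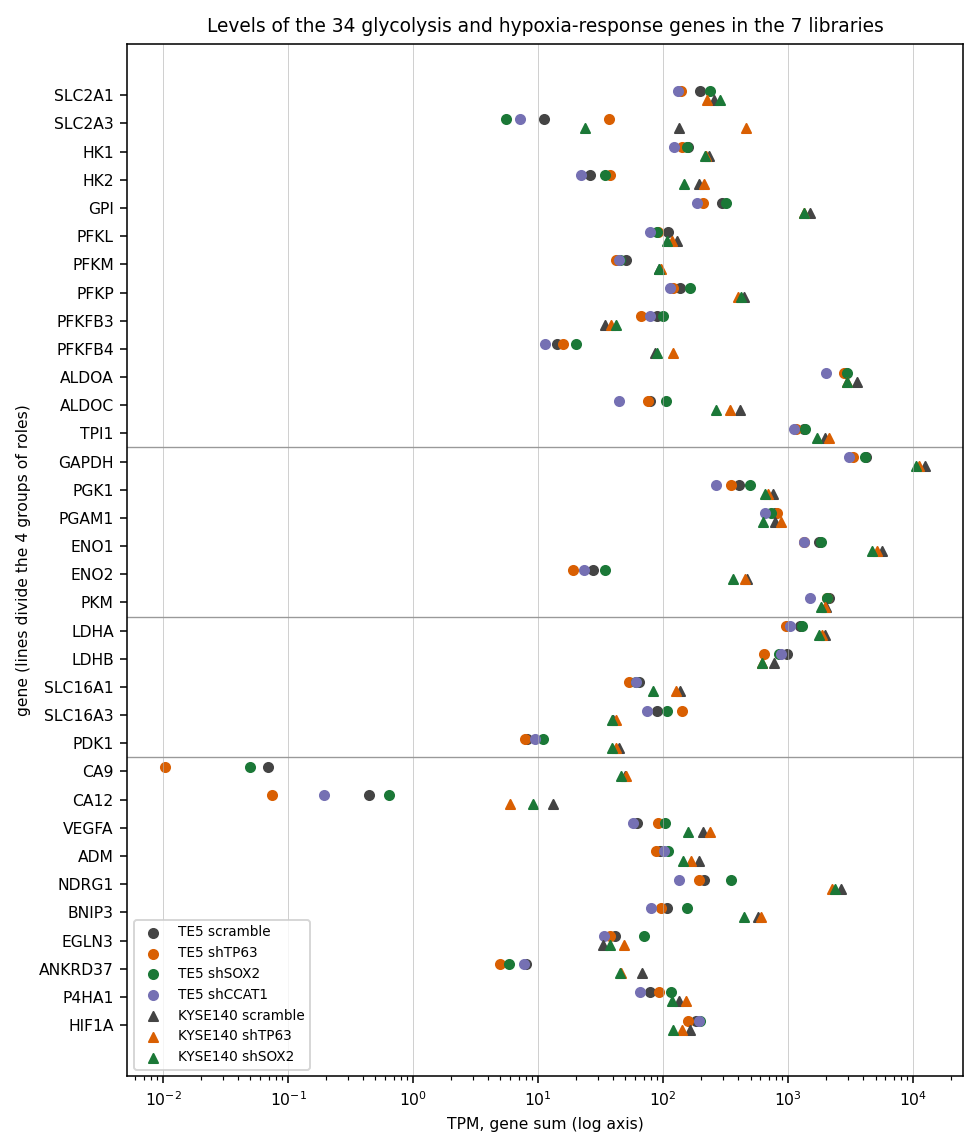
TPM (log axis) of each of the 34 genes in the 7 libraries, summed over its transcripts, with circles for TE5, triangles for KYSE140 and colors for the shRNA. KYSE140 lies to the right for most genes, by most for SLC2A3, ENO2, NDRG1, ANKRD37, CA9 and CA12, while PGAM1, PKM, LDHB and HIF1A lie together (CA9 in TE5 shCCAT1, at 0 TPM, is not drawn).

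Glucose uptake and early glycolysis held 12 genes that were lower and 1 that was higher in TE5. SLC2A3, which encodes the high-affinity transporter GLUT3, had 11.1 (scramble), 36.6 (shTP63), 5.54 (shSOX2) and 7.18 (shCCAT1) TPM in TE5, and 133 (scramble), 456 (shTP63) and 23.8 (shSOX2) TPM in KYSE140. Under each shRNA KYSE140 was higher, although the highest TE5 library lay above the lowest KYSE140 library, and the difference was 13.0-fold (log2 -3.70, SE 0.23, edgeR, Benjamini-Hochberg adjusted p = 1.56e-05). SLC2A1, the gene of the widespread transporter GLUT1, stood much closer, with 195.8, 140.1, 238 and 133 TPM in TE5 and 255, 224 and 285 TPM in KYSE140 in the same order. TE5 shSOX2 lay within the KYSE140 range, and the difference was 1.62-fold (log2 -0.70, SE 0.12).

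Hexokinases trap glucose in the cell by phosphorylation. HK2, the isoform induced in many tumors, had 26.1, 37.9, 34.4 and 22.1 TPM in TE5 and 193, 213 and 147 TPM in KYSE140. The lines did not overlap, and HK2 was 6.79-fold lower in TE5 (log2 -2.76, SE 0.16), against 1.82-fold for the constitutive HK1 (log2 -0.86, SE 0.11). The ratio of HK1 to HK2 in TPM was therefore 3.74 to 6.02 in TE5 and 1.03 to 1.48 in KYSE140. GPI, which interconverts the phosphates of glucose and fructose, was at 188 to 317 TPM in TE5 and 1329 to 1487 TPM in KYSE140 (6.16-fold lower in TE5, log2 -2.62, SE 0.15).

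Phosphofructokinase catalyzes the committed step, and its platelet isoform PFKP was the most abundant of the family in each library. PFKP was 3.80-fold, PFKM 2.41-fold and PFKL 1.56-fold lower in TE5. The PFKFB enzymes set the level of a sugar bisphosphate that activates phosphofructokinase, and these 2 members differed in opposite directions. PFKFB3 had 89.3, 66.5, 100.5 and 78.6 TPM in TE5 and 34.4, 38.3 and 42.3 TPM in KYSE140. PFKFB4 had 14.3, 15.8, 19.95 and 11.3 TPM in TE5 and 85.6, 119 and 88.7 TPM in KYSE140. The lines did not overlap for either gene: PFKFB3 was 1.88-fold higher (log2 0.91, SE 0.16) and PFKFB4 6.79-fold lower (log2 -2.76, SE 0.14) in TE5. Aldolase splits the hexose bisphosphate, and ALDOC was 4.73-fold and ALDOA 1.41-fold lower in TE5, while TPI1, which interconverts the triose phosphates, was 1.80-fold lower.

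In late glycolysis, where ATP and NADH are made, 4 of 6 genes were lower in TE5. GAPDH, the dehydrogenase often used as a reference gene, had 4217, 3274, 4080 and 3064 TPM in TE5 and 12480, 11150 and 10620 TPM in KYSE140. The lines did not overlap and GAPDH was 3.60-fold lower in TE5 (log2 -1.85, SE 0.13). ENO2, the enolase best known from neurons, had 27.5, 19.1, 34.3 and 23.2 TPM in TE5 and 469, 449 and 362 TPM in KYSE140. It was 17.2-fold lower in TE5 (log2 -4.11, SE 0.22, edgeR, Benjamini-Hochberg adjusted p = 9.14e-06), and the widespread ENO1 3.79-fold lower. The ENO1 to ENO2 ratio in TPM was 53.1 to 70.1 in TE5 and 11.4 to 12.9 in KYSE140. PGK1, which makes the first ATP of this phase, was 1.72-fold lower. PGAM1 (phosphoglycerate mutase) and PKM (pyruvate kinase) had fitted log2 differences of -0.22 (SE 0.12) and -0.17 (SE 0.11), which did not pass the test (edgeR, Benjamini-Hochberg adjusted p = 0.134 and 0.228).

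Among the genes of pyruvate and lactate handling, 3 of 5 were lower and 1 was higher in TE5. LDHA, whose subunit favors lactate formation, had 1251, 965, 1293 and 1037 TPM in TE5 and 1973, 1849 and 1780 TPM in KYSE140, without overlap, and was 1.76-fold lower. LDHB, whose subunit favors pyruvate formation, had 979, 637, 848 and 872 TPM in TE5 and 764, 619 and 615 TPM in KYSE140. The lines overlapped, and the log2 difference of LDHB was 0.02 (SE 0.13, edgeR, Benjamini-Hochberg adjusted p = 0.897). The LDHA to LDHB ratio in TPM was 1.19 to 1.53 in TE5 and 2.58 to 2.99 in KYSE140. The lactate transporters differed in opposite directions. SLC16A1 (MCT1) had 64.7, 53.4, 60.1 and 60.9 TPM in TE5 and 136, 127 and 82.6 TPM in KYSE140. SLC16A3 (MCT4), the low-affinity exporter of glycolytic cells, had 89.0, 141, 107 and 74.0 TPM in TE5 and 40.0, 41.7 and 39.1 TPM in KYSE140. Both genes separated the lines, SLC16A1 at 2.29-fold lower (log2 -1.20, SE 0.17) and SLC16A3 at 2.24-fold higher (log2 1.16, SE 0.14) in TE5. PDK1, the kinase that shuts pyruvate out of the citric acid cycle, was 5.37-fold lower in TE5.

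Of the 10 hypoxia-response genes, 8 were lower in TE5, at a median log2 difference of -1.96. CA9, the membrane-bound carbonic anhydrase widely used as a hypoxia marker, had 3, 1, 4 and 0 estimated counts in the TE5 libraries (scramble, shTP63, shSOX2 and shCCAT1) and 2867, 4264 and 3420.0 in the KYSE140 libraries (49.1, 50.9 and 45.7 TPM). The 4 TE5 libraries together had 8 counts, at or near the limit of detection, so no fold is given. CA12, a related anhydrase, had 0.447, 0.0742, 0.642 and 0.192 TPM in TE5 and 13.3, 6.01 and 9.10 TPM in KYSE140 (log2 -5.32, SE 0.42, edgeR, Benjamini-Hochberg adjusted p = 4.96e-05).

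NDRG1, a stress-induced gene linked to differentiation, had 213, 195, 346 and 133 TPM in TE5 and 2632, 2236 and 2368 TPM in KYSE140. It was 11.8-fold lower in TE5 (log2 -3.56, SE 0.19), without overlap. ANKRD37, a small ankyrin-repeat gene induced by HIF, had 7.97, 4.92, 5.84 and 7.68 TPM in TE5 and 67.4, 46.2 and 44.8 TPM in KYSE140, and was 10.8-fold lower. BNIP3, which directs mitochondria to autophagy, had 107, 96.8, 154 and 80.0 TPM in TE5 and 569, 608 and 440 TPM in KYSE140, and was 5.54-fold lower (log2 -2.47, SE 0.21). Counts of its 42 annotated pseudogenes came to 18.6 to 28.6% of its own, and the pseudogenes of the other members to less than 0.7%. VEGFA, the angiogenic ligand, had 62.0, 90.7, 104 and 57.5 TPM in TE5 and 210.3, 238 and 159 TPM in KYSE140, and was 2.72-fold lower. None of these genes overlapped between the lines. ADM, the vasodilator adrenomedullin, and P4HA1, a collagen prolyl hydroxylase, were 2.12-fold and 1.69-fold lower.

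EGLN3, the oxygen-sensing prolyl hydroxylase PHD3, and HIF1A did not pass the test. EGLN3 had 40.9, 37.7, 70.9 and 33.96 TPM in TE5 and 33.0, 48.8 and 37.5 TPM in KYSE140. HIF1A had 182, 158, 199 and 194 TPM in TE5 and 163, 141 and 120.2 TPM in KYSE140. The lines overlapped for EGLN3, and for HIF1A the lowest TE5 library lay below the highest KYSE140 library. The fitted log2 differences were 0.09 (SE 0.22) and 0.20 (SE 0.14; edgeR, Benjamini-Hochberg adjusted p = 0.756 and 0.264). The HIF1A protein is regulated mainly by its breakdown, which RNA-Seq does not measure.

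**Figure D2:**
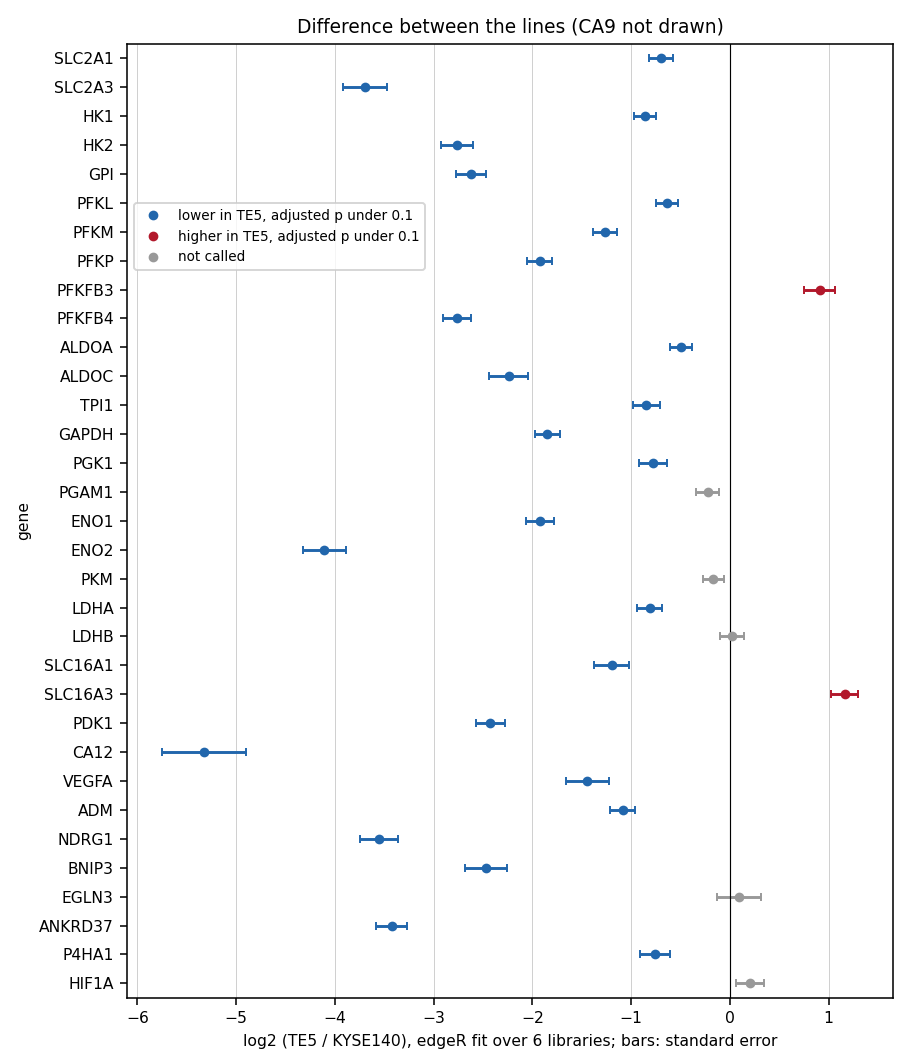
Fitted log2 difference between TE5 and KYSE140 (horizontal axis, edgeR over 6 libraries, bars for the standard error) for each gene; CA9 is not drawn because TE5 had at most 4 counts of it. Blue points are lower and red points higher in TE5 at an adjusted p under 0.1: PFKFB3 (0.91) and SLC16A3 (1.16) stand alone on the right, and CA12 (-5.32) and ENO2 (-4.11) lie farthest to the left.

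The HIF factors bind the hypoxia response element, whose core is ACGTG or GCGTG. The promoters of the genes more than 5-fold lower in TE5 are shown for the ACGTG form, because these genes differed most between the lines. The promoter was taken as the 250 bases before to 50 bases after the start of the most abundant protein-coding transcript (GENCODE, hg19), and the 5 bases of the core stand in capitals, as ACGTG or, where it lies on the other strand, as CACGT. Each window is written 5′ to 3′ on the strand of its gene.
CA9, chr9:35673895-35673923, plus strand: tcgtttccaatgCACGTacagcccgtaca
ENO2, chr12:7023614-7023642, plus strand: acccgcgctcgtACGTGcgcctccgccgg
SLC2A3, chr12:8088734-8088755, minus strand: tccttcctgaggACGTGgagaa
ANKRD37, chr4:186317840-186317868, plus strand: cagtgtttgtgtACGTGcggccgtggcgg
HK2, chr2:75061194-75061222, plus strand: aatgggcgtgcgCACGTcactgatccgga
GPI, chr19:34855723-34855747, plus strand: acactgcctgtaACGTGgaaggtgt
BNIP3, chr10:133795544-133795572, minus strand: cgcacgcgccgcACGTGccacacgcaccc
PDK1, chr2:173420789-173420817, plus strand: cctgctgcccgcCACGTccctcacgtacc

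These were 8 of the 11 genes past that fold. The promoters of CA12, NDRG1 and PFKFB4 had no ACGTG but held GCGTG (2, 1 and 1 matches). The core began 18 bases before the transcript start in CA9 and 118 bases before it in ENO2, and 40 bases after the start in SLC2A3. In BNIP3 it overlapped the E-box CACGTG, the element of MYC and related factors. Over all 34 promoters, 19 held ACGTG on either strand (55.9%), against 3345 of 13058 promoters of expressed protein-coding genes (25.6%). With GCGTG also accepted, the shares were 91.2% and 61.7%. PFKFB3 and SLC16A3, both higher in TE5, held ACGTG as well (2 matches each). Among the genes that did not pass the test between the lines, PGAM1 held it (1 match), and PKM, LDHB, EGLN3 and HIF1A did not. LDHA, 1.76-fold lower in TE5, had the most matches of the members (5). Genes without ACGTG included ENO1, LDHB, SLC2A1 and VEGFA, each of which held GCGTG. A match or its absence is a description of these windows, not of binding.

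SLC2A3 was the member that changed upon silencing of either transcription factor, in opposite directions. Its level was highest in the shTP63 library and lowest in the shSOX2 library of each line (values above), and the shCCAT1 library of TE5 was close to shSOX2. In edgeR's quasi-likelihood test over both lines, SLC2A3 rose 3.57-fold upon TP63 silencing (log2 1.84, SE 0.25, Benjamini-Hochberg adjusted p = 0.0775) and fell 3.78-fold upon SOX2 silencing (log2 -1.92, SE 0.26, adjusted p = 0.0946). Directly compared, the shTP63 libraries had 13.5-fold more SLC2A3 than the shSOX2 libraries, which came from the same lane within each line (log2 3.75, SE 0.28, edgeR, Benjamini-Hochberg adjusted p = 0.0126). These 3 comparisons share libraries.

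The change of SLC2A3 was close in size in both lines after TP63 silencing, and not after SOX2 silencing. Normalized counts went from 1853 to 6828 in TE5 (log2 1.88, 95% counting interval 1.81 to 1.955) and from 30607 to 106704 in KYSE140 (log2 1.80, 1.78 to 1.82) with shTP63. With shSOX2 they went to 701 in TE5 (37.9% of scramble) and to 5794 in KYSE140 (18.9%). With shCCAT1 they were 768 in TE5 (41.5%). These intervals cover counting error only and say nothing of the spread between cultures. With shSOX2, SOX2 itself stood at 39.6% of scramble in TE5 and 77.4% in KYSE140. The larger fall of SLC2A3 was thus in the line with the weaker silencing of SOX2, and the part of the SOX2 level was not tested.

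Most of the change was in the coding transcript SLC2A3-201. It had 7.78, 33.9, 2.31 and 2.92 TPM in TE5 (scramble, shTP63, shSOX2 and shCCAT1) and 121, 435 and 19.96 TPM in KYSE140. The retained-intron transcript SLC2A3-202 stayed between 2.06 and 2.35 TPM in all 4 TE5 libraries, but had 4.21 TPM in KYSE140 scramble, 6.93 with shTP63 and 2.07 with shSOX2. In TE5 it was a larger share of a lower total, so that SLC2A3-201 held 73.0% of the estimated counts of the gene in TE5 shSOX2 and 97.2% in TE5 shTP63. SLC2A3 lies on chromosome 12, at 8071826 to 8171603 (hg19), beside its near copy SLC2A14, with which it shares 25.7% of its words of 31 bases. Estimated counts of SLC2A14 were 0.389 to 2.70% of those of SLC2A3.

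The calls for SLC2A3 against scramble needed both scramble libraries. With the TE5 scramble library left out, edgeR gave a Benjamini-Hochberg adjusted p of 0.773 (TP63) and 0.508 (SOX2), and without the KYSE140 scramble library 0.308 and 0.791. The log2 values of SLC2A3 were then 1.56 and 2.13 for TP63 and -2.20 and -1.64 for SOX2, and these fits, with 1 residual degree of freedom, called 0 of all genes for either silencing (1106 to 2426 at an unadjusted p under 0.05). The difference between the silencings held without either of them (adjusted p = 0.0525 and 0.0561, edgeR with Benjamini-Hochberg adjustment), and its adjusted p was under 0.1 in 11 of 12 alternatives (range 2.76e-35 by DESeq2 to 0.127). Against scramble the call held in 8 of 12 alternatives for TP63 (8.33e-08 to 0.773) and in 8 of 12 for SOX2 (1.74e-08 to 0.791), with the direction of SLC2A3 the same in all of them.

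**Figure D3:**
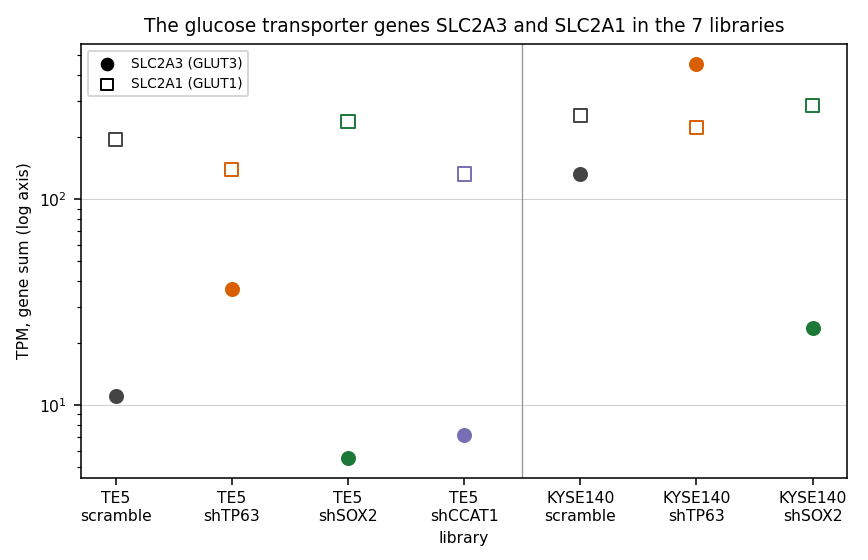
TPM (log axis) of SLC2A3 (filled circles) and SLC2A1 (open squares) in the 7 libraries, with 1 library per point. In each line SLC2A3 is highest in shTP63 (36.6 and 456 TPM) and lowest in shSOX2 (5.54 and 23.8 TPM), while SLC2A1 is highest in shSOX2 (238 and 285 TPM).

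SLC2A1 differed from SLC2A3 in the direction of its values with shTP63 and shSOX2, but not with shCCAT1. In both lines SLC2A1 was highest in the shSOX2 library. Against scramble its log2 fold change was -0.58 (shTP63), 0.32 (shSOX2) and -0.62 (shCCAT1, where SLC2A3 was also lower) in TE5, and -0.24 and 0.31 in KYSE140. Without scaling between the libraries, the value of SLC2A1 in KYSE140 shTP63 was 0.33. Over both lines it was 1.62-fold lower in shTP63 than in shSOX2 libraries (log2 -0.70, SE 0.15, edgeR, Benjamini-Hochberg adjusted p = 0.0727). Against scramble it passed neither test, with a fitted log2 fold change of -0.40 (SE 0.15) for TP63 and 0.30 (SE 0.15) for SOX2. The SLC2A1 to SLC2A3 ratio in TPM went from 17.7 in TE5 scramble to 3.83 with shTP63, 42.9 with shSOX2 and 18.5 with shCCAT1, and from 1.92 in KYSE140 scramble to 0.492 and 11.99. The call for SLC2A1 was lost when the TE5 shSOX2, TE5 shTP63 or either scramble library was left out (adjusted p = 0.118 to 0.242, edgeR with Benjamini-Hochberg adjustment), at log2 values of -0.55 to -0.71. Length-scaled TPM (adjusted p = 0.103) and unassigned transcripts kept (0.19) also took it past 0.1. It held in 6 of 12 alternatives (9.80e-04 to 0.242).

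Of the other members none passed the test over both lines for either silencing. Upon TP63 silencing SLC2A3 was the 1 member called higher, against 0.196% of all genes tested, and 0 were called lower (0.742% of all genes). In edgeR 5 were lower at an unadjusted p under 0.05 (8.18% of all genes). DESeq2 called 3 lower (ANKRD37, CA12 and LDHB), against 1054 of the 23438 genes tested. Upon SOX2 silencing SLC2A3 was the 1 member called lower (0.124% of all genes), and 0 were called higher (0.0213%). At an unadjusted p under 0.05 in edgeR, 0 were higher (3.84%). DESeq2 called 0 members higher, against 195 of the 23438 genes tested. Between the silencings 1 member was higher (1.8% of all genes) and 1 lower (2.41%) in shTP63. The median log2 fold change over the 34 genes was -0.24 for TP63 and 0.01 for SOX2, against 0.04 and 0.01 over all genes, and 26 and 16 of the 34 lay below 0.

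In TE5 cells, TP63 silencing went with lower values of most glycolytic genes by less than 2-fold. Of the 33 members that reached 10 counts, 27 had a log2 fold change below 0, with a median of -0.32 against 0.07 over all genes. Without scaling between the libraries the median of all genes shifted to 0.48 and 14 members lay below 0, while 27 lay below that median. In the 10% of genes with the highest counts, 69.3% lay below 0, with a median of -0.20, and 16.5% were lower and 3.81% higher past 1.5-fold. Past 1.5-fold, 6 members were lower, against 14.2% of all genes, and 1 was higher (25.1%). These were LDHB (log2 -0.78), PFKFB3 (-0.69), ENO2 (-0.68), GPI (-0.67), ANKRD37 (-0.88) and CA12, which went from 68 to 14 normalized counts. SLC16A3 and VEGFA lay above 0, at 0.51 and 0.46. All 6 squamous markers, TP63 among them, were lower in this library (median -1.19, summed level 1207 TPM in scramble and 405 TPM with shTP63), and the 4 fibroblast markers with 10 counts were higher (median 2.12, summed level of all 6 at 15.4 and 27.1 TPM). The fibroblast marker DCN reached 10 counts with shTP63 alone, at 5 normalized counts in scramble and 18 with shTP63. The part of the markers in these values was not tested.

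In KYSE140 cells with shTP63, 22 of 34 members lay below 0, with a median of -0.14 against 0.05 over all genes. Without scaling the median of all genes shifted to 0.62 and 2 members lay below 0, while 24 lay below that median, as with scaling. Past 1.5-fold, SLC2A3 was higher (16.6% of all genes), and CA12 and ANKRD37 were lower (9.96%), at log2 -1.20 and -0.60. Among the 10% of genes with the highest counts, 55.3% lay below 0, and 1.60% were higher and 5.08% lower past 1.5-fold. CA12 had 3062 normalized counts in scramble, 1328 with shTP63 and 1951 with shSOX2. In both lines CA12 and ANKRD37 were thus lower with shTP63 than with scramble, at fitted log2 values of -1.48 (SE 0.45) and -0.73 (SE 0.18) that did not pass the test (edgeR, Benjamini-Hochberg adjusted p = 0.226 and 0.151). ANKRD37 was below scramble in every silenced library. It had 372 normalized counts in TE5 scramble and 201, 300 and 330 with shTP63, shSOX2 and shCCAT1. In KYSE140 it had 3814 with scramble and 2522 and 2923 with shTP63 and shSOX2. For ANKRD37 an effect of the lane thus cannot be told apart. CA12 was also below scramble in TE5 shCCAT1 (37 against 68 normalized counts) and KYSE140 shSOX2, and above it in TE5 shSOX2 (102).

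SOX2 silencing in TE5 gave higher values of the hypoxia-response genes. Their median log2 fold change was 0.57, with 8 of 9 above 0, against 0.10 in early glycolysis, 0.02 in late glycolysis, 0.10 in pyruvate and lactate handling and -0.01 over all genes. Past 1.5-fold, 3 members were higher (13.2% of all genes): VEGFA (log2 0.83, 95% counting interval 0.79 to 0.87), EGLN3 (0.75, 0.70 to 0.80) and NDRG1 (0.73, 0.71 to 0.75). SLC2A3 was lower (11.8% of all genes). CA12 (0.58, from 68 to 102 normalized counts), P4HA1 (0.57) and BNIP3 (0.55) followed, and ANKRD37 was the member of the group below 0, at -0.31. The CA9 counts of TE5 were too few to compare. In the same library 4 of the 6 fibroblast markers reached 10 counts, and all 4 lay above 0 (median 1.55). COL3A1 went from 76 to 418 normalized counts. DCN reached 10 counts with shSOX2 alone, at 5 normalized counts in scramble and 20 with shSOX2. The summed level of the 6 was 14.9 TPM against 15.4 TPM in scramble. Of the 6 squamous markers 3 lay below 0 (median -0.60 over the 6). They were SOX2, the target of the shRNA, KRT14 (30 to 7 normalized counts) and KRT6A (315 to 41.97 TPM). The part of these in the hypoxia-response values was not tested.

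In KYSE140 the same shRNA target did not give this. The median of the 10 hypoxia-response genes was -0.19 (0.06 over all genes), and VEGFA (-0.30) and BNIP3 (-0.18) lay below 0, while NDRG1 had 446371 normalized counts in scramble and 446729 with shSOX2 and EGLN3 was at 0.33. Past 1.5-fold, 0 members were higher (14.5% of all genes) and 3 were lower (12.8%): SLC2A3, CA12 (-0.65) and the lactate transporter SLC16A1 (-0.60). Among the 10% of genes with the highest counts, 4.77% were higher and 4.34% lower past 1.5-fold. SOX2 was also silenced less in this line (77.4% of scramble against 39.6% in TE5), and the part of this in the difference was not tested.

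CCAT1 silencing, available in TE5, came with lower values of all 33 members that reached 10 counts. Their median log2 fold change was -0.49, against 0.02 over all genes. Among the 10% of genes with the highest counts 82.1% lay below 0, with a median of -0.22. Without scaling between the libraries 18 of the 33 lay below 0, since the median of all genes then shifted to 0.41, and all 33 lay below the median of all genes under the 3 scalings tried. The unscaled counts also moved the share of all changes past 2-fold that were higher, from 66.2 to 82.7% here, from 72.6 to 90.8% in TE5 shTP63, from 68.0 to 92.6% in KYSE140 shTP63 and from 53.4 to 64.3% in KYSE140 shSOX2. Past 1.5-fold, 10 members were lower, against 12.2% of all genes and 8.79% of these most abundant genes, and 0 were higher (19.9% of all genes). They were SLC2A1 (-0.62), SLC2A3 (-1.27), HK1 (-0.61), GPI (-0.75), ALDOA (-0.59), ALDOC (-0.93), PGK1 (-0.76), PKM (-0.61), CA12 (-0.85) and NDRG1 (-0.85). HIF1A and ADM were nearest to 0, at -0.05 and -0.07.

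**Figure D4:**
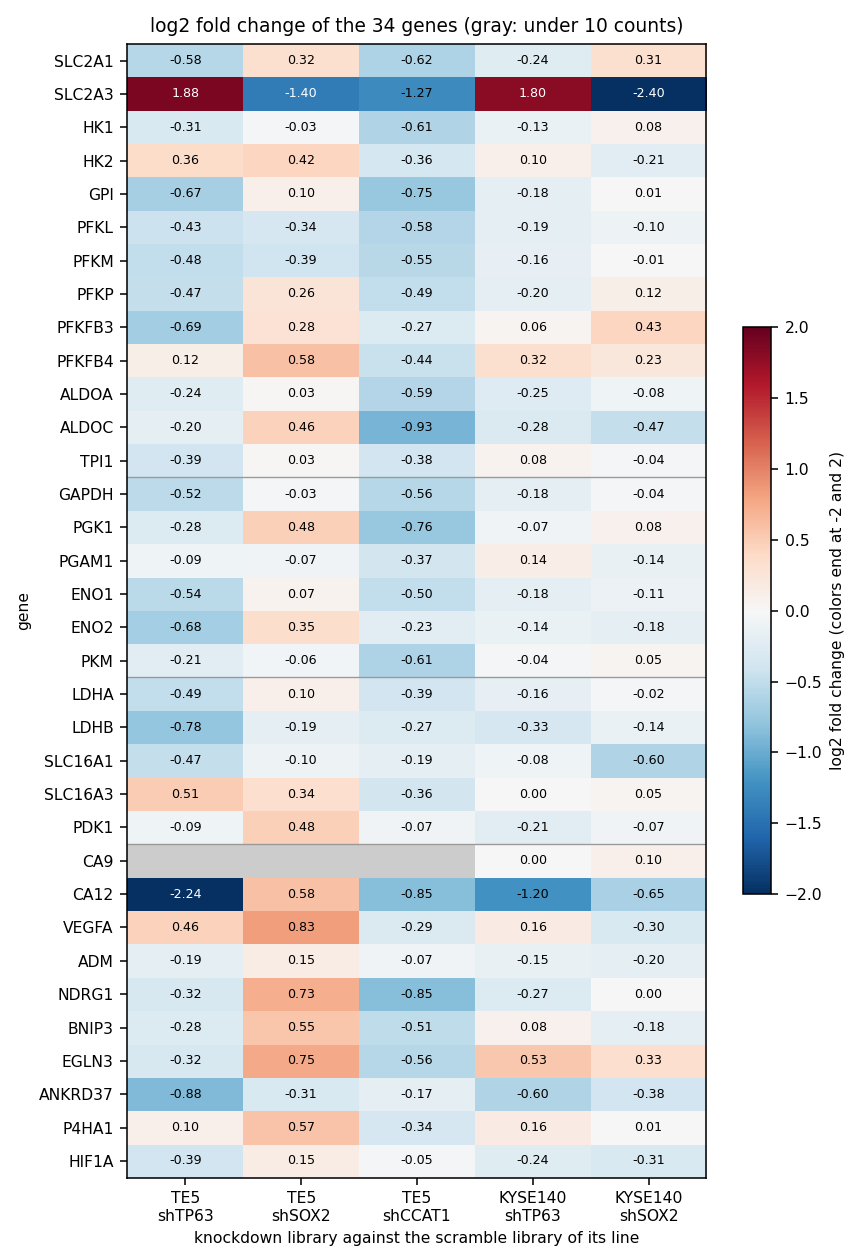
log2 fold change of each gene (vertical axis) in each knockdown library against the scramble library of its line (horizontal axis), from blue (lower) to red (higher), with gray where neither library had 10 counts. SLC2A3 is red in both shTP63 columns (1.88 and 1.80) and blue in the other 3, the TE5 shCCAT1 column has no red cell, and the hypoxia-response genes in the lower block are mostly red in TE5 shSOX2.

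Past 2-fold against scramble there were few members in any library. With shTP63, SLC2A3 was higher in TE5 (14.9% of all genes) and in KYSE140 (9.08%), and CA12 was lower in TE5 (5.61%) and in KYSE140 (4.28%). With shSOX2, SLC2A3 was lower in TE5 (4.95%) and in KYSE140 (6.17%), and 0 members were higher (6.31% and 7.08%). With shCCAT1, SLC2A3 was lower (6.05%) and 0 members were higher (11.9%). CA12 in TE5 rests on 14 to 102 normalized counts.

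The knockdown libraries of TE5 shared a lane, and among them shSOX2 stood above the others for most members. Against shSOX2, the shTP63 library had 31 of 33 members below 0 (median -0.53, against 0.05 over all genes), and the shCCAT1 library also 31 of 33 (median -0.58, against 0.04). Among the 10% of genes with the highest counts, 66.8% (shTP63) and 73.45% (shCCAT1) also lay below 0, with medians of -0.17 and -0.19. Without scaling 21 and 24 of the 33 lay below 0, and 31 in each case below the shifted median of all genes. Past 2-fold, 4 members were lower with shTP63 than with shSOX2 (6.3% of all genes), namely CA12 (-2.82), EGLN3 (-1.07), NDRG1 (-1.05) and ENO2 (-1.03), and SLC2A3 was higher (14.3%). With shCCAT1, 8 were lower than with shSOX2 (8.09% of all genes): NDRG1 (-1.58), CA12 (-1.43), ALDOC (-1.39), EGLN3 (-1.31), PGK1 (-1.23), VEGFA (-1.12), BNIP3 (-1.05) and PFKFB4 (-1.02), and 0 were higher (12.2%). Without scaling, 2 members were past 2-fold for shTP63 and 3 for shCCAT1 against shSOX2. Between shCCAT1 and shTP63 the median was -0.08, and SLC2A3 (-3.15) was lower (14.5% of all genes) and CA12 (1.40) higher (10.0%) past 2-fold. In KYSE140, 20 of 34 members lay below 0 between shTP63 and shSOX2 (median -0.10; without scaling 2 of 34, median 0.32), and SLC2A3 (4.203) was higher past 2-fold (10.4% of all genes) and 0 members were lower (6.73%).

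**Figure D5:**
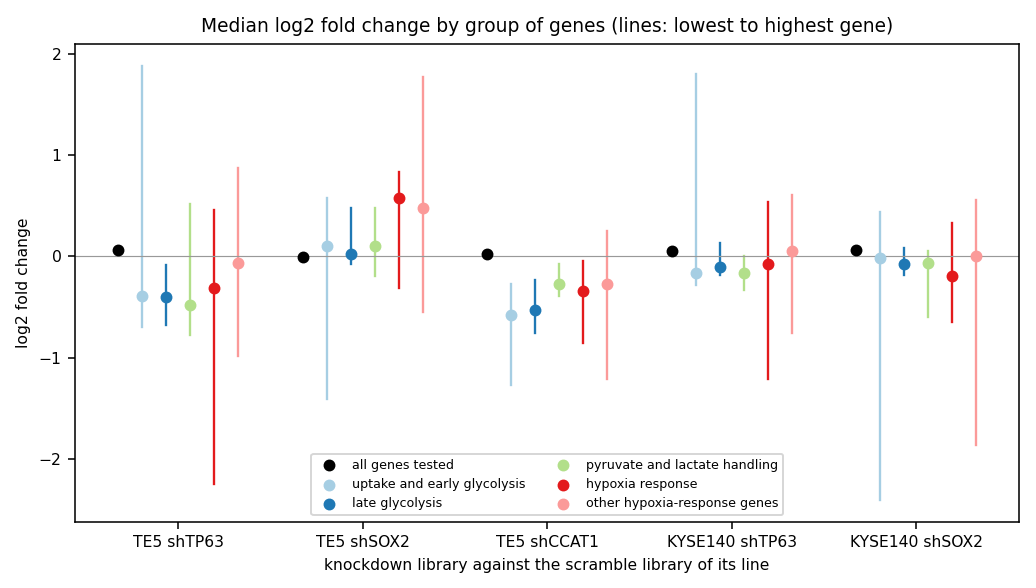
Median log2 fold change (points) with the lowest and highest gene (vertical lines) of the 4 role groups, of 30 other hypoxia-response genes and of all genes tested (median alone), for each knockdown library against scramble. The 2 hypoxia groups stand highest in TE5 shSOX2 (medians 0.57 and 0.47), and the groups lie below the median of all genes in TE5 shTP63 and TE5 shCCAT1.

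Other genes of the same pathways were compared from lists chosen by function, with earlier results of these data known, so that they are no independent check. Of 30 further hypoxia-response genes, 21 were lower and 5 higher in TE5 than in KYSE140 (edgeR at an adjusted p under 0.1), at a median log2 difference of -1.10. Of 27 further glycolysis and pyruvate genes tested, 9 were lower and 10 higher, at a median of 0.10. In the citric acid cycle 9 of 16 were lower and 5 higher, and in the pentose phosphate pathway 3 of 7 each. Over all genes tested, 31.8% were lower and 34.3% higher in TE5. The 30 further hypoxia-response genes also lay mostly above 0 in TE5 shSOX2, with 26 of 30 above 0 and a median of 0.47. Past 1.5-fold, 9 were higher (13.2% of all genes), led by ANGPTL4 (log2 1.77), a lipid-regulating secreted protein, and LOX (1.39), which crosslinks collagen. In KYSE140 shSOX2 15 of the 30 lay above 0, with a median of 0.01.

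In edgeR's test over both lines, 0 of the 87 genes tested from these lists passed for TP63 silencing (0.939% of all genes). By an unadjusted p under 0.05 there were 19 (14.4% of all genes), and DESeq2 called 8 (6.3%). For SOX2 silencing 0 passed (0.145%), with 15 at an unadjusted p under 0.05 (8.94%) and 3 by DESeq2 (2.49%). Between the silencings 5 passed (4.22%), with 23 at an unadjusted p under 0.05 (17.5%) and 14 by DESeq2 (9.66%). PLOD2, a collagen lysyl hydroxylase, had 73.6, 44.7, 123 and 75.0 TPM in TE5 (scramble, shTP63, shSOX2 and shCCAT1) and 46.5, 31.7 and 59.2 TPM in KYSE140. It was lowest with shTP63 and highest with shSOX2 in both lines, and its log2 difference between them was -1.42 (SE 0.18, edgeR, Benjamini-Hochberg adjusted p = 0.0236). EPAS1, the alpha subunit of HIF-2, had 75.0, 81.7, 101 and 66.3 TPM in TE5 and 19.5, 20.3 and 30.6 TPM in KYSE140. It was highest with shSOX2 in both lines (shTP63 over shSOX2, log2 -0.62, SE 0.15, edgeR, Benjamini-Hochberg adjusted p = 0.0965). ZNF395, a HIF-induced zinc finger gene, was lower with shTP63 (-0.68), and ARNT2 (1.23), a partner of the HIF alpha subunits, and SDHB (0.68), a subunit of succinate dehydrogenase, were higher. SDHB had 90.5, 80.0, 43.8 and 77.8 TPM in TE5 and 133, 105 and 63.5 TPM in KYSE140, lowest with shSOX2 in both, but against scramble its log2 fold change of -1.002 (SE 0.14) did not pass the test (edgeR, Benjamini-Hochberg adjusted p = 0.103).

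BNIP3, GAPDH, PGK1 and LDHA were also followed by single transcripts. BNIP3-201 carried 91.4 to 95.8% of the estimated counts of BNIP3, and gave -0.32, 0.55 and -0.54 in TE5 (shTP63, shSOX2 and shCCAT1) and 0.04 and -0.23 in KYSE140, against -0.28, 0.55, -0.51, 0.08 and -0.18 for the gene sum. GAPDH-204 carried 42.8 to 49.6% of the estimated counts of GAPDH, and its log2 fold change was -0.52, -0.08 and -0.62 in the silenced TE5 libraries (shTP63, shSOX2 and shCCAT1) and -0.32 and -0.16 in those of KYSE140. The gene sums gave -0.52, -0.03, -0.56, -0.18 and -0.04. The coding transcript PGK1-201 gave -0.16, 0.66, -0.77, 0.08 and 0.27, against -0.28, 0.48, -0.76, -0.07 and 0.08 for the gene sum of PGK1, so that the sign differed in KYSE140 shTP63. The transcript with the highest TPM, PGK1-205, for which no coding sequence is annotated, gave -0.42, 0.25, -0.75, -0.19 and -0.06, and differed in sign from the gene sum in KYSE140 shSOX2. For LDHA, LDHA-206 gave -0.47, 0.24, -0.43, -0.20 and 0.02 and the gene sum -0.49, 0.10, -0.39, -0.16 and -0.02.

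Transcript use also separated the lines. LDHA-222, annotated as a target of nonsense-mediated decay, held 13.7 to 17.0% of the LDHA counts in the 4 TE5 libraries and 0.584 to 1.37% in the 3 KYSE140 libraries. ALDOA-206 held 2.90 to 3.67% of the ALDOA counts in TE5 and 26.2 to 33.2% in KYSE140. The coding transcript ANKRD37-201 held 22.5 to 29.7% in TE5 and 79.3 to 82.1% in KYSE140, so the difference between the lines was larger for it than for the gene sum of ANKRD37. Such shares are estimates from reads that fit several transcripts, and 38.2% of the 31-base words of ANKRD37 and 43.6% of those of ALDOA occur in other genes.

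Pyruvate kinase showed a single pattern. PKM carries a choice between exon 9 (M1 form, chr15:72495363-72495529) and exon 10 (M2 form, chr15:72494795-72494961; hg19), each of 167 bases, and the M2 form is that of proliferating cells. Transcripts with the M1 exon held 1.12 to 1.91% of the counts of the transcripts with either exon over the 7 libraries. The ranges of the lines overlapped, with TE5 at 1.73, 1.299, 1.38 and 1.12% (scramble, shTP63, shSOX2 and shCCAT1) and KYSE140 at 1.91, 1.44 and 1.88%.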

How the data were processed

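RNA-Seq reads of the 7 libraries were pseudoaligned with Kallisto (version not given in the sources used here) to an hg19 Ensembl transcriptome, and the authors deposited the TPM, the effective length and the estimated count of each transcript. The deposited estimated counts are unscaled, and the deposited TPM values are corrected for length and depth.

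Transcripts were summed to genes with GENCODE 44 mapped to hg19, which covered 182863 of 196354 transcripts and 93.4 to 93.7% of counts; 13491 transcripts were left out. Counts were normalized with TMM in edgeR 4.0.16 (R 4.3.3). Within a line the log2 fold change was log2((a + 1)/(b + 1)) of normalized counts, for genes with 10 counts in either library, with a 95% Poisson interval for counting error only and no test. Across lines, edgeR's quasi-likelihood test was fitted to counts rounded to whole numbers, with line and condition as terms, 6 libraries, filterByExpr and Benjamini-Hochberg adjustment over 23438 genes, and was tested on simulated data. DESeq2 1.42.0 was an alternative, and 12 alternatives were run for each fit and 7 for each pair of libraries.

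Every member is named. From each other list, the genes named are those with the largest mean change of the same sign in both lines and at least 100 normalized counts, up to 3 per comparison. Members and lists were chosen with earlier results of these data known. Promoters were read from the hg19 reference. Python 3.11.15 with pandas 2.3.3 and numpy 2.4.6 was used.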

Additional observations from a re-analysis of the deposited data

Results flagged for a closer look

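Some members had log2 fold changes of opposite sign in the lines after the same silencing, with 1 library per condition in each. The difference between the lines was not tested for any of them. With shTP63, EGLN3 was at -0.32 in TE5 and 0.53 in KYSE140 (difference -0.85) and PFKFB3 at -0.69 and 0.06 (difference -0.75). With shSOX2, CA12 was at 0.58 in TE5 and -0.65 in KYSE140 (difference 1.23), VEGFA at 0.83 and -0.30 (1.14), ALDOC at 0.46 and -0.47 (0.93), BNIP3 at 0.55 and -0.18 (0.73) and HK2 at 0.42 and -0.21 (0.64). In all, 6 members had opposite signs with shTP63 and 15 with shSOX2, and those listed differed by more than 1.5-fold. The 6 include CA9, which had 3 normalized counts in TE5 scramble and 1 in TE5 shTP63, too few to compare.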

How the results depend on the processing

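Between TE5 and KYSE140, 29 to 31 members were called under each alternative, and the main fit called 15484 of 23438 genes. For TP63 silencing, with 1 member called, 4 were called by DESeq2 and with every gene of at least 1 count, 0 with length-scaled TPM and with unassigned transcripts kept (an alternative chosen after seeing the data), and 0 to 9 when 1 library was left out, with 9 without KYSE140 shTP63 and 0 without either scramble library. For SOX2 silencing 1 was called (34 of 23438 genes). Length-scaled TPM gave 0 (12 of 23578 genes), and unassigned transcripts kept also gave 0 (1 of 30171 features). With 1 library left out, SLC2A3 was at a log2 value of -2.42 to -1.42. Between the silencings, with 2 called, these settings gave 6, 6, 1 and 0, and 1 to 13 when 1 library was left out, with 13 without KYSE140 shTP63.

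Members past 2-fold in TE5 were 1 with shSOX2 (0 by TPM) and 1 with shCCAT1 (0 without scaling and by TPM, 2 with at least 1 count or a mean of at least 100, 3 by main transcript). They were 5 for shTP63 against shSOX2 (2 without scaling and by TPM), 2 for shCCAT1 against shTP63 (1 by TPM) and 8 for shCCAT1 against shSOX2 (3 without scaling, 4 by TPM). Without scaling the median over the members went from -0.32 to 0.10 in TE5 shTP63, from -0.14 to 0.43 in KYSE140 shTP63, from -0.06 to 0.10 in KYSE140 shSOX2 and from -0.10 to 0.32 for shTP63 against shSOX2 in KYSE140, and stayed below the median of all genes in each. No member called over both lines or past 2-fold changed sign. The causes were not tested.

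Over all genes, TP63 silencing gave 220 calls in edgeR, 1477 in DESeq2 and 0 without either scramble library, and SOX2 silencing 34, 583 and 0. With 1 library per condition, a left-out library leaves a lone sample that is assumed to vary like the others. No paired analysis was possible by replicate number because each condition has 1 library per line. The fit compares conditions within a line through its term for the line.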

Other observations

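The pentose phosphate pathway, which branches from glycolysis to make NADPH and ribose, and the citric acid cycle, which burns its pyruvate, were compared next to the 34 genes. In TE5 shTP63 and in KYSE140 shTP63, 15 of 16 genes of the citric acid cycle lay below 0 on the log2 scale, and 14 of 16 in the fit over both lines, at a median of -0.32 against 0.04 over all genes, but 0 passed edgeR's test after Benjamini-Hochberg adjustment (8 at an unadjusted p under 0.05, against 14.4% of all genes). Without scaling between the libraries 7 of 16 lay below 0 in TE5 shTP63 and 1 of 16 in KYSE140 shTP63, and 15 of 16 below the shifted median of all genes in both. The lowest was IDH3A, a subunit of NAD-dependent isocitrate dehydrogenase, at -0.66 (SE 0.15, edgeR, Benjamini-Hochberg adjusted p = 0.129). PGD, a dehydrogenase of the pentose phosphate pathway, had 235, 183, 212 and 147 TPM in TE5 (scramble, shTP63, shSOX2 and shCCAT1) and 467, 302 and 357 TPM in KYSE140. It was below scramble in each silenced library, and its fitted log2 fold change with shTP63 was -0.57 (SE 0.14, edgeR, Benjamini-Hochberg adjusted p = 0.146).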
